A study of Mus musculus with 9 samples.

Results

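The immunoglobulin genes examined here are the constant and variable segments that encode antibody heavy and light chains. A row of the expression table was included when its symbol starts with Ighv, Igkv, Iglv, Igkc or Iglc, or is Igha, Ighm, Ighd, Ighe, Ighg1, Ighg2b, Ighg2c or Ighg3, and when it reached 1 FPKM (fragments per unit of transcript length and of library size) in at least 3 of the 9 libraries. The members were thus chosen by symbol and by FPKM. Of 35315 genes in the table, 262 carried such a symbol and 197 met the threshold. They were 7 of 8 heavy chain constant genes, 4 of 5 light chain constant genes, 94 of 130 Ighv segments, 89 of 116 Igkv segments and 3 of 3 Iglv segments. The remaining 65 rows stayed under the threshold, Ighe among them.

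Total RNA came from the colon of wild-type C57BL/6J mice in 3 groups of 3 libraries each. The GsMTx4 group was 8 weeks old, drank water with 2.5% dextran sulfate sodium (DSS) for 7 days and was injected intravenously with GsMTx4 at 10 mg/kg on days 2, 4 and 6. The DSS group was of the same age, drank the same DSS water for 7 days and was injected with solvent on the same days. The Control group drank normal water, and neither an injection nor an age is listed for it. DSS is a sulfated sugar polymer given to rodents to damage the gut lining and bring on colitis, and GsMTx4 is a spider-venom peptide that blocks cation channels opened by mechanical force. The labels do not say whether the libraries of a group are separate mice, so all spreads and p-values describe these 9 samples, and the spread may be technical.

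An antibody pairs heavy chains with kappa or lambda light chains. Each chain joins a variable segment, which forms the antigen-binding end, to a constant region, and the heavy constant region sets the isotype: IgM and IgD on naive B cells, and IgG, IgA or IgE after class switching. Plasma cells secrete antibody and hold very large amounts of immunoglobulin transcript. In the healthy gut most of them make IgA, which the J chain joins into dimers and the polymeric Ig receptor carries through the epithelium into the lumen. One B cell clone uses 1 rearranged heavy and usually 1 light variable segment, so the mixture of segments in a tissue reflects the clones that it holds.

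The constant genes of the heavy chain lie side by side on chromosome 12 (GRCm38, minus strand), from Igha at chr12:113254830-113260236 to Ighm at chr12:113418558-113422730. Igkc lies at chr6:70726435-70726966 and Iglc1 at chr16:19061618-19062071. The 4 IgG genes are close copies of each other, and the first 60 bases of their coding transcripts are shown because this likeness bears on how far their values can be told apart. Capitals mark bases that differ from Ighg2c at the same position.
Ighg2c: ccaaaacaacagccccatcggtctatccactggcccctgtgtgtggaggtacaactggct
Ighg2b: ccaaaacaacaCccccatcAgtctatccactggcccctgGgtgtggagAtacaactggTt
Ighg1: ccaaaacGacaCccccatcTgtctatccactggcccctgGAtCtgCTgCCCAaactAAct
Ighg3: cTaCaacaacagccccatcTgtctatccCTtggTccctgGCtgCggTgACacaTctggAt
Ighg2b differed from Ighg2c at 5 of these 60 bases, and Ighg1 and Ighg3 at 14 each. The longest identical run between Ighg2c and Ighg2b was 78 bases, against 12 bases between Igha and Ighm. Reads from Ighg2c and Ighg2b may therefore have been divided between them, and how the authors' program did this is not given in the sources used here.

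Many variable segments are close copies too. The last 45 bases of the 4 Ighv segments with the highest mean FPKM over the 9 libraries are printed with the codon of the conserved cysteine, which ends the framework before the third hypervariable loop, in capitals.
Ighv1-72: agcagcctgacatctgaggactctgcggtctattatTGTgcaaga
Ighv1-26: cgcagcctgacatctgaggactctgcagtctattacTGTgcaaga
Ighv1-9: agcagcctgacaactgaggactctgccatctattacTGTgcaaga
Ighv1-18: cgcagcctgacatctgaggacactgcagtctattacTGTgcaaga
The 4 Igkv segments with the highest mean FPKM ended as follows.
Igkv17-121: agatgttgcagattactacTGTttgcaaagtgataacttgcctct
Igkv17-127: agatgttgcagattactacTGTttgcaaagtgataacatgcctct
Igkv10-96: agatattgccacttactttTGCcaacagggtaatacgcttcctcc
Igkv1-99: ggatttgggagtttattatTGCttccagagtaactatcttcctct
Igkv17-121 and Igkv17-127 are 1 family and read nearly alike here. The lambda segments Iglv1 and Iglv2 shared an identical run of 104 bases.
Iglv1: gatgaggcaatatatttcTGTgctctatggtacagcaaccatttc
Iglv2: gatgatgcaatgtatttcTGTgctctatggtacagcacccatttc
Of the 197 genes, 159 shared a run of 50 bases with another annotated immunoglobulin row, 72 a run of 100 bases and 18 a run of 150 bases. In Igkv6-20, Ighv1-71, Ighv1-62-2 and Igkv3-11, over 50% of the 100-base runs were shared, so their single values are uncertain. The same holds for Ighv1-72, which shared 92.5% of its 50-base runs, 42.8% of its 100-base runs and 28.7% of its 150-base runs. The span of 8 genes from start to end, introns included, overlapped that of another gene of the table on either strand. Among them were Igkc with Gm30211 and Iglv1 with 2010309G21Rik. A further point is that 4 of the 197 genes are annotated as pseudogenes.

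The threshold chose the members by level. Just inside it, the third-highest FPKM over the libraries was 1.12 for Ighv1-11, 1.26 for Ighv1-43 and 1.35 for Ighv1-38. Just outside it was 0.985 for Igkv4-71, 0.981 for Ighv11-1 and 0.961 for Ighv3-3. All 9 libraries reached 1 FPKM for 156 of the 197 genes. Igkv3-11 and Ighv1-38 passed only through the DSS libraries, so that they were bound to be higher there. The largest value among the rows outside was that of Ighv7-4, which stood at 397 FPKM in DSS 3 and at or under 0.296 FPKM in each of the other 8 libraries; it was picked after its values were seen.

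Immunoglobulin transcripts were more abundant in DSS than in the other groups. The 262 rows together made up 4.06, 3.35 and 4.48% of all FPKM in the GsMTx4 libraries, 6.20, 7.37 and 14.4% in the DSS libraries, and 3.604, 4.36 and 2.73% in the Control libraries. Every DSS library lay above every library of the other groups, and GsMTx4 and Control overlapped. DSS 3 stood apart from DSS 1 and DSS 2. The FPKM of all genes summed to 349120 to 391430 in 8 libraries and to 440940 in GsMTx4 3. In this bulk RNA, fewer cells of a type and less RNA per cell cannot be told apart.

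**Figure D1:**
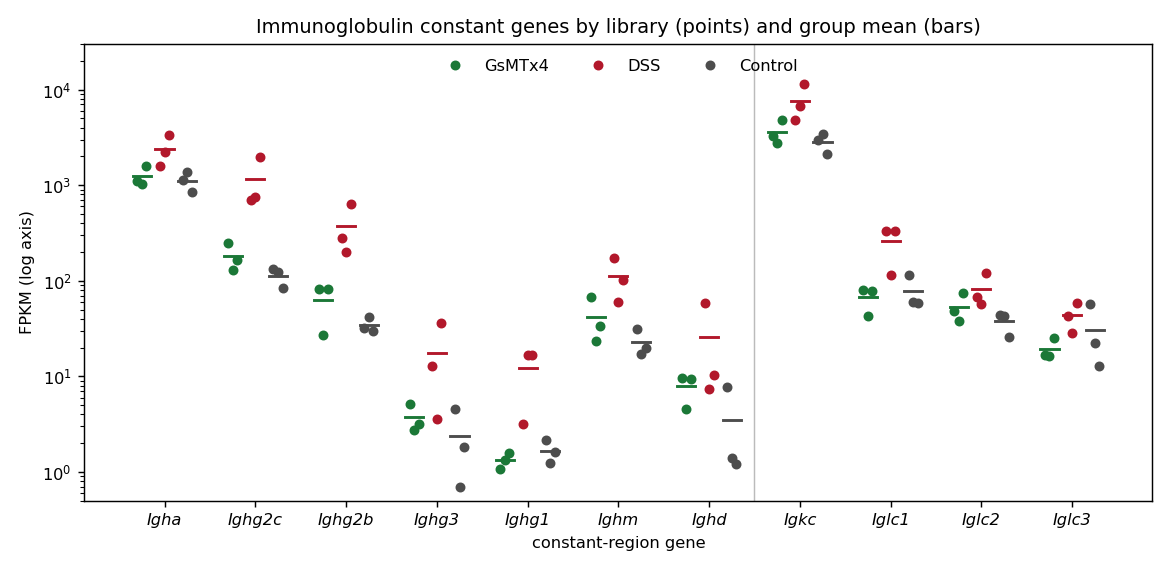
FPKM of the 11 constant genes that met the threshold, on a log axis, with 1 point per library and a bar at the mean of each group of 3. For Igha, Ighg2c, Ighg2b and Ighg1 all DSS points lie above all points of GsMTx4 and Control, while for Ighg3 and Ighd the groups overlap.

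Igha, the IgA constant gene, was the most abundant heavy chain gene in every library. It stood at 1116, 1027 and 1579.9 FPKM in GsMTx4, at 1589, 2213 and 3368 FPKM in DSS, and at 1124, 1370.0 and 849 FPKM in Control. All DSS libraries were above all others, with DSS 1 only just above GsMTx4 3. The change nonetheless missed the threshold of the limma test, with a log2 fold change of 1.06 ± 0.33 (SE) and an adjusted p of 0.0555 in DSS against Control, and of -0.90 ± 0.33 and 0.103 in GsMTx4 against DSS. With DSS 1 left out, the first comparison passed, at an adjusted p of 0.0382 and a log2 fold change of 1.32, and it passed with GsMTx4 3 left out as well, at an adjusted p of 0.0429; adjusted p ran up to 0.178 over the libraries left out in turn. The scaling and filter also decided this call: the rise passed after rescaling to TPM (0.0455), after rescaling over genes other than immunoglobulin (0.0482), with median-of-ratios scaling (0.0421) and among genes with a mean of at least 5 FPKM (0.0449), but not with quantile normalization (0.148).

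The IgG genes Ighg2c and Ighg2b were higher in every DSS library than in every Control library. Ighg2c, the IgG2 form carried by C57BL/6 mice, stood at 249, 130.3 and 165 FPKM in GsMTx4, at 696, 758 and 1991 FPKM in DSS, and at 132, 124 and 83.9 FPKM in Control. Ighg2b stood at 81.1, 26.9 and 81.8 FPKM in GsMTx4, at 279, 199.8 and 638 FPKM in DSS, and at 32.2, 41.9 and 30.1 FPKM in Control. For both genes the DSS libraries did not overlap either other group, GsMTx4 and Control overlapped, and DSS 3 was the highest library. The ratio of the DSS mean to the Control mean was 10.1 for Ighg2c and 10.7 for Ighg2b, and without DSS 3 it was 6.41 and 6.89. Ighg2c rose by a log2 fold change of 3.18 ± 0.41 in DSS against Control (limma, adjusted p = 0.00216) and fell by 2.53 ± 0.41 on the log2 scale in GsMTx4 against DSS (adjusted p = 0.00750). Ighg2b rose by 3.22 ± 0.50 (limma, adjusted p = 0.00434) and fell by 2.52 ± 0.50 in GsMTx4 against DSS (adjusted p = 0.0149). The 2 comparisons share the DSS libraries, so a chance high value there would move both. All 4 of these calls passed with any single library left out, with adjusted p up to 0.0437. The fall of Ighg2b was lost when GsMTx4 and DSS were fitted alone, at an adjusted p of 0.0508.

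The minor isotypes were less even. Ighg1, of the IgG1 subclass, stood at 1.08, 1.34 and 1.57 FPKM in GsMTx4, at 3.21, 16.8 and 16.8 FPKM in DSS, and at 2.17, 1.24 and 1.61 FPKM in Control. It was highest in all DSS libraries but much lower in DSS 1 than in the other two. Ighg1 rose by 2.05 ± 0.48 in DSS against Control (limma, adjusted p = 0.0215) and fell by 2.24 ± 0.48 in GsMTx4 against DSS (adjusted p = 0.0199). The rise was lost without Control 2, Control 3, DSS 2 or DSS 3 (adjusted p 0.0776, 0.0666, 0.0659 and 0.0624), and the fall without DSS 2, DSS 3 or GsMTx4 2 (0.0545, 0.0612 and 0.0669). Ighg3, of the IgG3 subclass, stood at 5.204, 2.77 and 3.18 FPKM in GsMTx4, at 12.7, 3.59 and 36.0 FPKM in DSS, and at 4.56, 0.699 and 1.84 FPKM in Control. Its groups overlapped because DSS 2 was low, and neither comparison passed, at adjusted p 0.0595 and 0.170; without DSS 2 both did, at 0.0174 and 0.0407.

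Ighm and Ighd, which encode the IgM and IgD of naive B cells, were highest in DSS 1 and not in DSS 3. Ighm stood at 68.0, 23.2 and 33.8 FPKM in GsMTx4, at 173, 60.7 and 103 FPKM in DSS, and at 31.6, 17.3 and 19.95 FPKM in Control. All DSS libraries lay above Control, whereas GsMTx4 1 exceeded DSS 2. Ighm rose by 2.16 ± 0.45 in DSS against Control (limma, adjusted p = 0.0141), a call that was lost without Control 2 or Control 3 (0.0590 and 0.0530). Its difference in GsMTx4 against DSS was -1.42 ± 0.45 (adjusted p = 0.0725), which passed without DSS 2 or GsMTx4 1 (0.0465 and 0.0313). Ighd stood at 9.60, 4.55 and 9.43 FPKM in GsMTx4, at 59.0, 7.47 and 10.4 FPKM in DSS, and at 7.82, 1.40 and 1.21 FPKM in Control. The Ighd groups overlapped and neither comparison passed, at adjusted p 0.0633 and 0.371; without Control 1 the rise passed at 0.0440. Ighe, of the IgE isotype, was under the threshold, with at most 1.81 FPKM, in DSS 3.

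**Figure D2:**
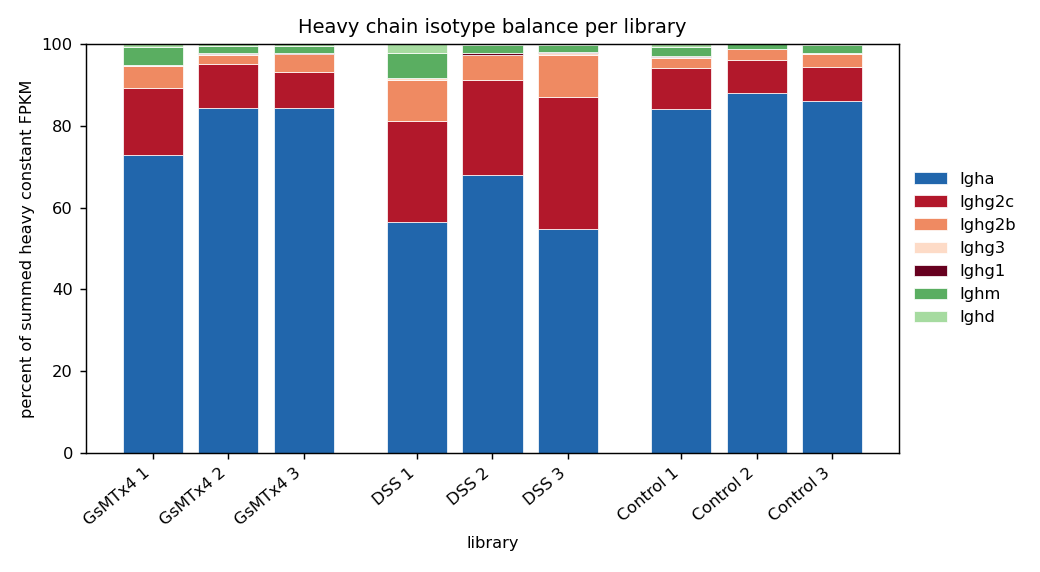
Percent of the summed FPKM of the heavy constant genes contributed by each isotype gene, as 1 stacked bar per library; Ighe, at most 0.0330%, is left out. The Igha part covers 54.6 to 67.9% in DSS, less than in every GsMTx4 and Control library.

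The Igha share was lower and the IgG share higher in the DSS libraries. Igha made up 72.9, 84.4 and 84.3% of the summed heavy constant FPKM in GsMTx4, 56.5, 67.9 and 54.6% in DSS, and 84.2, 88.0 and 85.9% in Control. DSS overlapped neither group, and GsMTx4 1 was the lowest library outside DSS. The 4 IgG genes together took 22.0, 13.3 and 13.4% in GsMTx4, 35.2, 30.0 and 43.5% in DSS, and 12.8, 10.8 and 11.9% in Control. The IgG share kept all 3 groups apart, with every GsMTx4 library above every Control library. As mean ± SD of 3 libraries the IgG share was 16.2 ± 4.98% in GsMTx4, 36.2 ± 6.81% in DSS and 11.8 ± 1.03% in Control. With 3 against 3 libraries an exact permutation test cannot go below p = 0.10, and the members were chosen with these data known, so no p is given for shares.

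Ighg2c carried most of the IgG share, at 16.3, 10.7 and 8.80% in GsMTx4, 24.7, 23.2 and 32.3% in DSS, and 9.92, 7.96 and 8.50% in Control. Again the DSS libraries were above all others. The ratio of Ighg2b to Ighg2c was 0.326, 0.206 and 0.495 in GsMTx4, 0.401, 0.264 and 0.321 in DSS, and 0.243, 0.338 and 0.359 in Control, with all groups overlapping. Of the difference of 2786 FPKM between the DSS and Control means of summed heavy constant FPKM, Igha made up 45.8% and the IgG genes 50.2%. The Ighm share was 4.45, 1.91 and 1.80% in GsMTx4, 6.16, 1.86 and 1.66% in DSS, and 2.36, 1.11 and 2.02% in Control, so it was high in DSS 1 alone among the DSS libraries and its groups overlapped. FPKM already divides by length, but by which of several annotated transcripts is not given. Weighting by the longest transcript undoes that division only if that length was the one used. This weighting gave a DSS minus Control difference of -20.5 percentage points for Igha and 18.8 for IgG, in place of -26.4 and 24.4.

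The kappa chain dominated the light chains. Igkc, the only kappa constant gene, stood at 3286, 2795 and 4800.4 FPKM in GsMTx4, at 4754, 6662 and 11407 FPKM in DSS, and at 2957, 3424 and 2096 FPKM in Control. DSS lay above Control throughout, and GsMTx4 3 exceeded DSS 1. Igkc rose by 1.36 ± 0.39 in DSS against Control (limma, adjusted p = 0.0433), and in GsMTx4 against DSS it differed by -1.01 ± 0.39 (adjusted p = 0.120). The rise passed only without DSS 1 or GsMTx4 3; without each of the other 7 libraries it did not, with adjusted p from 0.0588 without GsMTx4 2 to 0.147 without Control 3.

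Iglc1, a lambda constant gene, stood at 79.3, 42.9 and 79.1 FPKM in GsMTx4. It stood at 333, 114 and 334 FPKM in DSS, and at 114, 60.04 and 59.1 FPKM in Control. The lowest DSS library and the highest Control library nearly met. Iglc1 rose by 1.65 ± 0.45 in DSS against Control (limma, adjusted p = 0.0375) and fell by 1.84 ± 0.45 in GsMTx4 against DSS (adjusted p = 0.0325). The rise was lost without Control 2, Control 3, DSS 1 or DSS 3, with adjusted p up to 0.123, and the fall without those or GsMTx4 2 or GsMTx4 3, up to 0.116. Iglc2 and Iglc3, the other lambda constant genes, passed in neither comparison, with adjusted p of 0.0596 and 0.316 in DSS against Control; Iglc2 passed without GsMTx4 3, at 0.0432. The lambda part of the light constant FPKM was 4.21, 3.36 and 3.596% in GsMTx4, 8.53, 2.92 and 4.32% in DSS, and 6.76, 3.53 and 4.46% in Control, with all groups overlapping and DSS 1 the highest.

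Across all 197 genes, 35 rose in DSS against Control and 0 fell (limma on log2(FPKM + 1), adjusted p under 0.05 over 14360 tested genes). That is 17.8% of them, while 6.41% of all tested genes rose and 10.7% fell. The median log2 fold change was 1.13 over the 197 genes, 174 of them positive, and -0.17 over all tested genes. At an unadjusted p under 0.05, 71 were higher and 1 lower. In either direction that was 72 of the 197 genes and 5014 of the 14360 tested genes, a similar share. Without Igkv3-11 and Ighv1-38, 33 of 195 rose. By class the risers were 4 of 7 heavy constant genes, 2 of 4 light constant genes, 20 of 94 Ighv, 8 of 89 Igkv and 1 of 3 Iglv segments. The count rested on the Control libraries and on DSS 3: it was 19, 21 and 12 without Control 1, Control 2 and Control 3, and 20 without DSS 3. All DSS libraries exceeded all Control libraries for 65 of the 197 genes, against 13.5% of all tested genes, and the reverse held for 0, against 33.6%.

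In GsMTx4 against DSS, 31 of the 197 genes fell and 1, Ighv1-61, rose, where 5.62% of all tested genes fell and 6.66% rose. The median log2 fold change was -1.17, beside 0.07 over all tested genes, and 26 were positive. The genes that fell were 3 heavy constant genes, 1 light constant gene, 17 Ighv, 9 Igkv and 1 Iglv segments. Without Igkv3-11 and Ighv1-38 they were 29 of 195. The count was 16 without DSS 3 and 15 without GsMTx4 2. All GsMTx4 libraries lay below all DSS libraries for 49 genes, against 12.8% of all tested genes, and above them for 2, Ighv1-61 and Ighv2-9, against 17.5%; Ighv2-9 was singled out after its values were seen. The all-gene shares depend on scaling: median-of-ratios scaling gave 1418 rises and 919 falls over all genes in DSS against Control, where the values as deposited gave 921 and 1541, while 43 immunoglobulin genes rose and 0 fell. It moved the all-gene median to -0.01 and that of the immunoglobulin genes to 1.31. The same scaling in GsMTx4 against DSS gave 818 rises and 1069 falls over all genes, and rescaling over genes other than immunoglobulin gave 528 and 696, in place of 956 and 807, with 31 and 29 immunoglobulin genes lower.

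In GsMTx4 against Control, 0 of the 197 genes passed in either direction (limma), where 0.188% of all tested genes rose and 0.0487% fell. At an unadjusted p under 0.05, 6 were higher and 8 lower, beside 1456 of all 14360 tested genes in either direction. The median log2 fold change was 0.01, beside -0.08 over all tested genes. A p that misses the threshold does not show equal levels: for Ighg2c the difference was 0.65 ± 0.41 and for Ighm 0.74 ± 0.45.

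**Figure D3:**
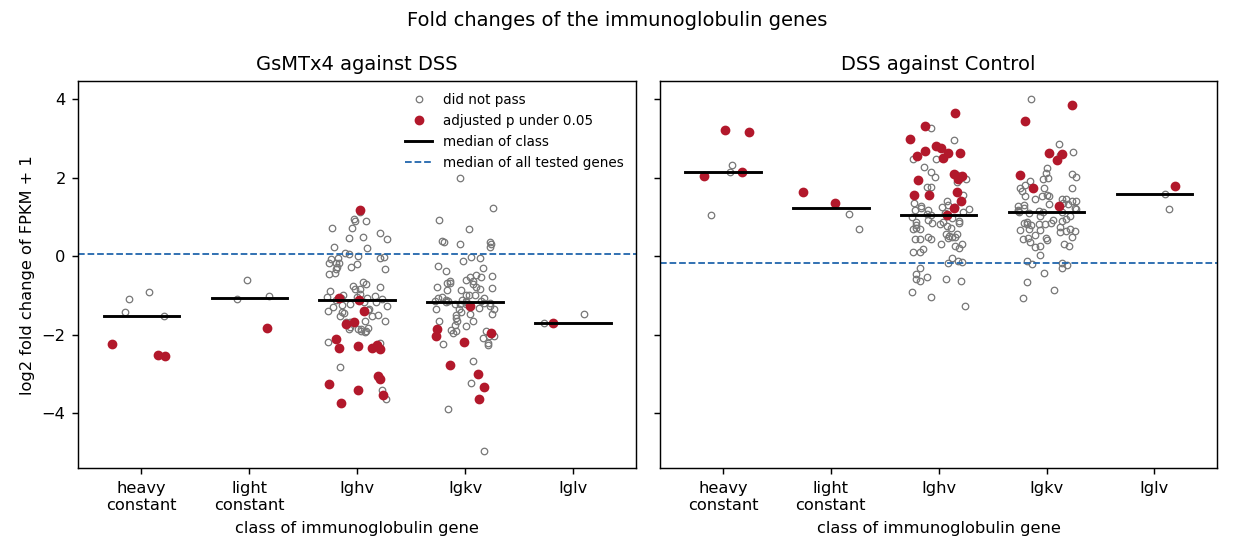
Log2 fold change of FPKM + 1 of each of the 197 genes by class, in GsMTx4 against DSS (left) and DSS against Control (right), with filled red points for adjusted p under 0.05, a black bar at the class median and a dashed line at the median of all tested genes. All class medians lie above that line in DSS against Control and below it in GsMTx4 against DSS; both panels use the same DSS libraries.

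Among variable segments, the most abundant ones followed different courses. Ighv1-72 stood at 204, 148 and 709 FPKM in GsMTx4, at 374, 967 and 1193 FPKM in DSS, and at 88.1, 205 and 97.0 FPKM in Control. Much of its sequence is shared with other segments, so these single values are uncertain. DSS lay above Control, and GsMTx4 3 lay within the range of DSS. Ighv1-72 rose by 2.64 ± 0.63 in DSS against Control (limma, adjusted p = 0.0234; lost without Control 1, Control 3, DSS 2 or DSS 3, up to 0.0786), and in GsMTx4 against DSS it differed by -1.44 ± 0.63 (adjusted p = 0.164; 0.0456 without GsMTx4 3). Ighv1-9 was steadier, at 211, 116 and 122 FPKM in GsMTx4, 491, 567 and 354 FPKM in DSS, and 161, 162 and 144 FPKM in Control. It rose by 1.56 ± 0.26 (limma, adjusted p = 0.00583) and fell by 1.68 ± 0.26 in GsMTx4 against DSS (adjusted p = 0.00644), and both calls passed with any single library left out. Of the 8 Ighv segments with the highest mean FPKM, only Ighv1-72 and Ighv1-9 rose; Ighv1-26, Ighv1-18, Ighv1-76, Ighv1-81, Ighv3-6 and Ighv1-53 did not pass, with log2 fold changes from 0.57 to 1.76 in DSS against Control. Ighv1-53 passed there without DSS 2 or GsMTx4 1, at a lowest adjusted p of 0.0389.

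Igkv17-121 was the most abundant kappa segment, at 483, 157 and 1340.4 FPKM in GsMTx4, 680.5, 2033 and 1980.3 FPKM in DSS, and 206, 429 and 132 FPKM in Control. DSS lay above Control and GsMTx4 3 fell among the DSS values. Igkv17-121 rose by 2.62 ± 0.77 in DSS against Control (limma, adjusted p = 0.0465), a call that held only without DSS 1, GsMTx4 2 or GsMTx4 3 and reached adjusted p up to 0.143 otherwise. Igkv10-96, Igkv1-99, Igkv17-127, Igkv6-23, Igkv19-93, Igkv1-117 and Igkv15-103 did not pass, with log2 fold changes from -0.23 for Igkv15-103 to 1.98 for Igkv17-127. Without DSS 1, Igkv19-93 and Igkv1-117 passed, at 0.0373 and 0.0387. Of the lambda segments, Iglv1 stood at 211, 113 and 247 FPKM in GsMTx4, at 662, 379.5 and 817 FPKM in DSS, and at 262, 135 and 139 FPKM in Control. Iglv1 rose by 1.79 ± 0.40 (limma, adjusted p = 0.0173; lost without Control 2, Control 3 or DSS 3, up to 0.0707) and fell by 1.70 ± 0.40 in GsMTx4 against DSS (adjusted p = 0.0268; lost without DSS 1, DSS 3 or GsMTx4 2, up to 0.0946). Iglv2 and Iglv3 passed in neither comparison; Iglv3 did in DSS against Control without GsMTx4 1 or GsMTx4 2, and in GsMTx4 against DSS without GsMTx4 1.

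The largest rises with groups that did not overlap were those of Igkv8-28, Ighv8-5, Igkv4-57-1 and Ighv2-6-8. Igkv8-28 stood at 7.23, 27.5 and 9.69 FPKM in GsMTx4, at 24.3, 177 and 177 FPKM in DSS, and at 8.59, 3.85 and 4.72 FPKM in Control. Its log2 fold change was 3.85 ± 0.75 in DSS against Control (limma, adjusted p = 0.0104), and DSS 1 was far below the other DSS libraries. In GsMTx4 against DSS, where GsMTx4 2 exceeded DSS 1, it fell by 2.77 ± 0.75 (adjusted p = 0.0435), a call kept only without DSS 1 and lost without each of the other 8 libraries, up to 0.122. Igkv4-57-1 stood at 14.5, 57.0 and 7.83 FPKM in GsMTx4, at 182, 616 and 132 FPKM in DSS, and at 14.9, 29.9 and 22.6 FPKM in Control. It rose by 3.45 ± 0.73 (limma, adjusted p = 0.0141; 0.0513 without Control 1) and fell by 3.63 ± 0.73 in GsMTx4 against DSS (adjusted p = 0.0156). Its high library was DSS 2.

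Ighv8-5 stood at 0, 1.10 and 8.98 FPKM in GsMTx4, at 17.5, 101.2 and 16.1 FPKM in DSS, and at 1.73, 1.94 and 1.06 FPKM in Control. DSS 2 was again the highest. Ighv8-5 rose by 3.65 ± 0.86 (limma, adjusted p = 0.0222) and fell by 3.53 ± 0.86 in GsMTx4 against DSS (adjusted p = 0.0314); both calls were lost without Control 2, Control 3 or DSS 2, the rise also without Control 1 and the fall also without GsMTx4 1 or GsMTx4 2, up to adjusted p 0.108. Ighv2-6-8 stood at 0.565, 0.538 and 1.04 FPKM in GsMTx4, at 16.9, 6.89 and 83.2 FPKM in DSS, and at 2.78, 1.41 and 0.326 FPKM in Control, with DSS 3 highest. It rose by 3.31 ± 0.73 (limma, adjusted p = 0.0173; lost without Control 2 or Control 3, up to 0.0656) and fell by 3.75 ± 0.73 in GsMTx4 against DSS, the largest such fall (adjusted p = 0.0147; 0.0555 without GsMTx4 2).

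Ighv6-3 stood at 19.6, 12.2 and 16.8 FPKM in GsMTx4, at 118, 73.8 and 659 FPKM in DSS, and at 19.0, 66.5 and 22.2 FPKM in Control. It fell by 3.42 ± 0.75 in GsMTx4 against DSS (limma, adjusted p = 0.0210; 0.0801 without GsMTx4 2), and its rise in DSS against Control (adjusted p = 0.0482) held only without DSS 2. Ighv1-61 went the other way, at 18.1, 43.0 and 20.5 FPKM in GsMTx4, 8.30, 11.1 and 12.9 FPKM in DSS, and 14.6, 9.49 and 11.4 FPKM in Control. It rose by 1.18 ± 0.31 in GsMTx4 against DSS (limma, adjusted p = 0.0405), which held only without GsMTx4 1 and was lost without each of the other 8 libraries, up to 0.102.

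More variable rows were detected in DSS than in Control, while the evenness among them overlapped. At 1 FPKM, 80, 90 and 86 of the 130 Ighv rows were detected in GsMTx4, 94, 92 and 95 in DSS, and 89, 90 and 86 in Control. For the 116 Igkv rows the numbers were 77, 79 and 81 in GsMTx4, 87, 88 and 89 in DSS, and 82, 83 and 84 in Control, and the 3 groups did not overlap. At 5 FPKM the Igkv numbers were 65, 66 and 66 in GsMTx4, 73, 73 and 81 in DSS, and 63, 71 and 64 in Control, where GsMTx4 and Control overlapped. The Ighv numbers at 5 FPKM overlapped between all groups, at 72, 75 and 70 in GsMTx4, 80, 75 and 87 in DSS, and 71, 78 and 71 in Control. The summed FPKM of Ighv and of Igkv was also highest in DSS, and its part in these counts was not tested. Relative to the summed heavy constant FPKM, the summed Ighv FPKM was 2.65, 2.88 and 2.77 in GsMTx4, 2.17, 2.37 and 2.44 in DSS, and 2.69, 2.87 and 2.80 in Control, so that DSS lay below every other library. The light chain differed: summed Igkv relative to Igkc was 1.4998, 1.485 and 1.55 in GsMTx4, 1.62, 1.59 and 1.73 in DSS, and 1.56, 1.63 and 1.63 in Control, with GsMTx4 below both other groups and DSS overlapping Control.

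The effective number of segments is the exponential of the Shannon entropy of their FPKM shares, which equals the number of equally abundant segments that would give the same evenness. For Ighv it was 46.0, 52.0 and 38.0 in GsMTx4, 49.4, 42.2 and 52.7 in DSS, and 50.7, 49.99 and 51.6 in Control. For Igkv it was 38.6, 41.8 and 31.8 in GsMTx4, 46.3, 31.9 and 42.4 in DSS, and 42.4, 44.6 and 45.6 in Control. Control was tight for both chains, DSS and Control overlapped, and the low libraries were GsMTx4 3 and DSS 2. The Igkv values of GsMTx4 lay below all Control values. The 10 highest segments held 48.2, 39.7 and 53.3% of Ighv FPKM in GsMTx4, 43.8, 48.7 and 41.2% in DSS, and 40.8, 45.4 and 44.6% in Control, with all groups overlapping. Of Igkv FPKM they held 50.2, 48.8 and 57.2% in GsMTx4, 42.6, 59.0 and 48.2% in DSS, and 48.6, 46.2 and 47.2% in Control, so that GsMTx4 lay above Control and DSS overlapped both.

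**Figure D4:**
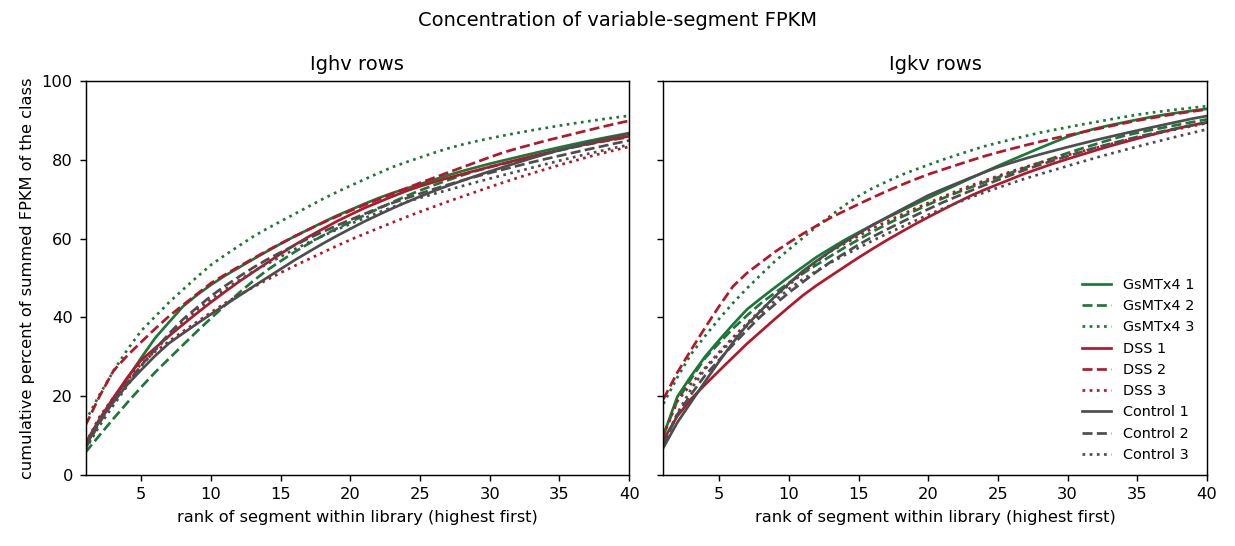
Cumulative percent of the summed FPKM of a class against the rank of the segment within a library, for all 130 Ighv rows (left) and 116 Igkv rows (right), cut at rank 40, with 1 line per library. GsMTx4 3 runs highest in Ighv, and GsMTx4 3 and DSS 2 run highest in Igkv, where the first segment alone holds 18.0 and 19.2%.

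The leading segment held more of its class in DSS than in Control. For Igkv the top segment took 10.0, 10.0 and 18.0% in GsMTx4, 8.82, 19.2 and 10.0% in DSS, and 6.92, 7.67 and 7.99% in Control. All GsMTx4 and DSS libraries lay above all Control libraries for Igkv. In DSS this was Igkv17-121 in all 3 libraries, which also led in GsMTx4 3, while Igkv10-96 led in GsMTx4 1, GsMTx4 2 and Control 3, Igkv1-135 in Control 1 and Igkv1-99 in Control 2. For Ighv the top segment took 7.20, 5.70 and 13.7% in GsMTx4, 8.03, 12.5 and 7.91% in DSS, and 7.52, 6.74 and 6.44% in Control, with DSS above Control and GsMTx4 spanning both. Ighv1-72 led in DSS 2, DSS 3 and GsMTx4 3, Ighv1-9 in DSS 1, Ighv1-52 in GsMTx4 1 and Ighv1-18 in GsMTx4 2, and each Control library had its own leader, Ighv1-81, Ighv1-26 and Ighv3-6. The rule chose rows by level, so these leaders are a description, and the values of Ighv1-72 are uncertain because of its shared runs.

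Most Ighv FPKM came from 1 family. Ighv1, the largest heavy family with 70 of the 130 rows, held 65.0, 63.4 and 67.1% of Ighv FPKM in GsMTx4, 68.4, 69.1 and 64.6% in DSS, and 62.6, 66.8 and 61.03% in Control. The groups overlapped. The family Igkv17, which has only 2 rows, held 14.0, 4.87 and 24.7% of Igkv FPKM in GsMTx4, 14.9, 21.9 and 14.0% in DSS, and 9.53, 9.84 and 5.56% in Control, so that DSS lay above Control while GsMTx4 spanned both. Ighv9 was the opposite, at 7.20, 7.00 and 9.86% in GsMTx4, 2.29, 6.77 and 3.41% in DSS, and 5.62, 8.76 and 9.86% in Control. All GsMTx4 libraries exceeded all DSS libraries, and DSS 2 lay within Control. Igkv15 was lower in every DSS library (2.33, 1.69 and 0.622%) than in every Control library (3.27, 3.56 and 6.27%). Ighv6 was lower in every GsMTx4 library (0.639, 0.958 and 0.585%) than in DSS (2.16, 1.27 and 5.61%) or Control (2.08, 2.40 and 1.37%). Ighv1 is the largest family; the others here were picked after their values were seen.

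**Figure D5:**
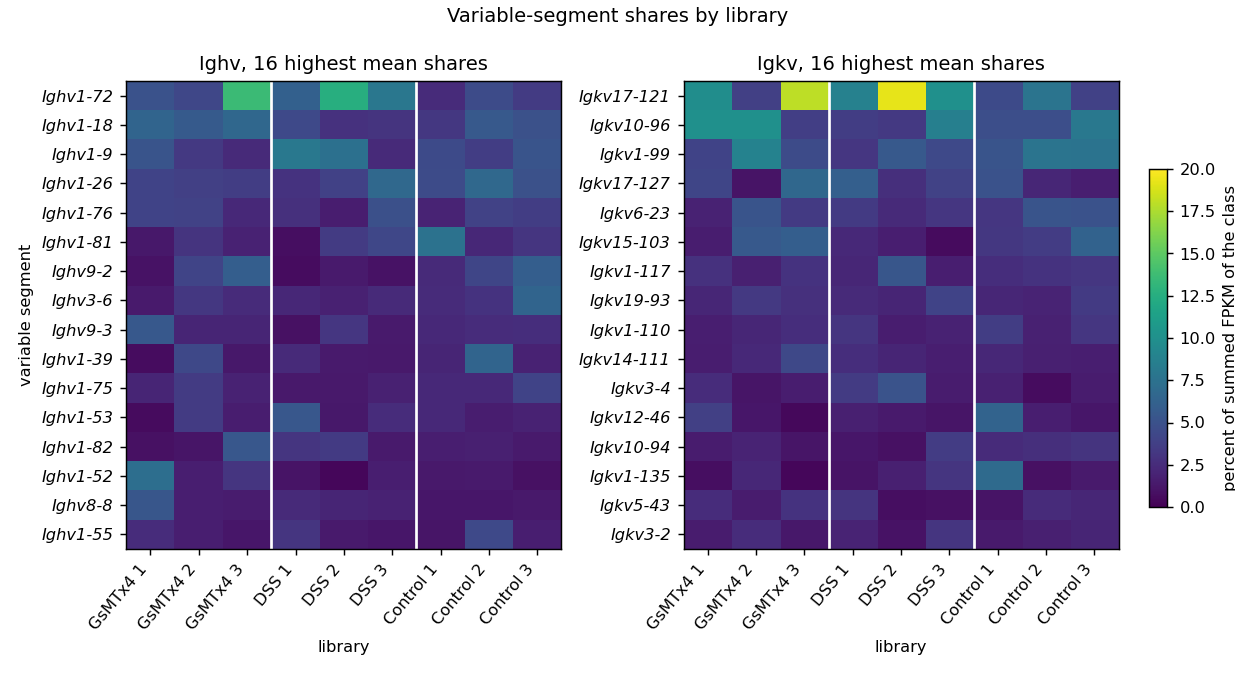
Share of each of the 16 Ighv (left) and 16 Igkv segments (right) with the highest mean share, in percent of the summed FPKM of the class, with 1 column per library and groups parted by white lines. Igkv17-121 reaches 18.0% in GsMTx4 3 and 19.2% in DSS 2, and bright cells of most other segments stand in 1 library of a group.

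Single libraries rather than whole groups held many of the high segments. Among variable members with at least 10 FPKM in some library of the group, 15 of 148 (10.1%) in GsMTx4, 35 of 170 (20.6%) in DSS and 18 of 145 (12.4%) in Control had 1 library at 5 times or more of the next. Among genes other than immunoglobulin the shares were 0.481, 0.436 and 0.196% in GsMTx4, DSS and Control. DSS 3 was that library for 23 of the 35 segments. Igkv6-13 stood at 570 FPKM in DSS 3 and at 5.79 and 2.88 FPKM in DSS 1 and DSS 2. Ighv1-31 stood at 307 FPKM in DSS 3, beside 16.4 and 1.81 FPKM in DSS 1 and DSS 2. The same held outside DSS, with Igkv6-14 at 299 FPKM in GsMTx4 3 and at 7.74 and 8.35 FPKM in GsMTx4 1 and GsMTx4 2. In Control, Igkv1-135 stood at 320 FPKM in the first library, beside 50.5 and 48.8 FPKM in the others. These 4 segments were picked after their values were seen.

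The median coefficient of variation within a group was 0.653 in GsMTx4, 0.719 in DSS and 0.464 in Control for variable members, 0.324, 0.507 and 0.254 for constant members, and 0.175, 0.158 and 0.0774 for other genes. Variable segments thus varied more between libraries of 1 group than constant genes or other genes did, in each group. The highest of the 9 values fell in GsMTx4 for 35, in DSS for 133 and in Control for 18 of the 186 variable members, and in DSS 3 alone for 91. Pairs of libraries shared between 64.5 and 65.5% of their Ighv FPKM shares within DSS, 59.8 to 65.3% within GsMTx4 and 65.9 to 77.0% within Control, where sharing is the sum over segments of the smaller of both shares. Between DSS and Control the range was 58.9 to 68.6%, so that in Ighv 2 DSS libraries were little more alike than a DSS and a Control library. For Igkv the range was 61.3 to 64.3% within DSS, 59.0 to 61.5% within GsMTx4 and 66.7 to 74.3% within Control. Between DSS and Control it was 56.7 to 69.4%, which spans the range within DSS.

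Genes that accompany antibody secretion moved with the constant genes in part. Of the plasma cell and secretion list, 10 of 14 tested genes rose in DSS against Control and 9 fell in GsMTx4 against DSS. The median log2 fold change of the list was 0.76 and -0.69. Of all tested genes, 6.41% rose in the first comparison and 5.62% fell in the second. Mzb1, a chaperone of antibody-secreting cells, stood at 22.1, 16.8 and 27.3 FPKM in GsMTx4, at 42.5, 45.3 and 84.5 FPKM in DSS, and at 19.6, 23.5 and 14.8 FPKM in Control, with DSS above all others. Pou2af1, a coactivator of immunoglobulin transcription, rose by 1.74 ± 0.24 (limma, adjusted p = 0.00281) and fell by 1.67 ± 0.24 (adjusted p = 0.00505), and Tnfrsf13b, the TACI receptor for BAFF and APRIL, rose by 1.49 ± 0.26 (adjusted p = 0.00713). The rises numbered 5 without Control 3 and 6 without Control 1 or DSS 3. The falls numbered 1 without GsMTx4 2, 2 without DSS 3, 3 without GsMTx4 3, and 5 without Control 2, DSS 1 or GsMTx4 1. No fit that left out 1 library gave more than 6 falls.

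Jchain, which joins IgA dimers, stood at 347, 334 and 387 FPKM in GsMTx4, at 498, 446 and 623 FPKM in DSS, and at 404, 245 and 290.1 FPKM in Control. DSS was above both groups. Jchain rose by 0.76 ± 0.22 in DSS against Control (limma, adjusted p = 0.0466; passed only without Control 1 or GsMTx4 3, up to 0.169), and in GsMTx4 against DSS it differed by -0.54 ± 0.22 (adjusted p = 0.140). The summed IgG genes relative to Jchain came to 0.968, 0.482 and 0.650 in GsMTx4, 1.99, 2.19 and 4.31 in DSS, and 0.425, 0.686 and 0.405 in Control, whereas Igha relative to Jchain overlapped between all groups.

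Most mature B cell genes, like Ighm and Ighd, were highest in DSS 1. Of 17 tested B cell surface and signalling genes 5 rose in DSS against Control (Cd79b, Cd79a, Fcrla, Blk and Spib), where 6.41% of all tested genes rose. Their median log2 fold change over the list was 1.42. In GsMTx4 against DSS 0 passed (limma), and 7 were lower and 0 higher at an unadjusted p under 0.05. Of all 14360 tested genes, 4324 were under 0.05 there in either direction. In that comparison Cd37 and Cd79b fell without DSS 2 and Cd74 without GsMTx4 3, and Cd74 also fell after rescaling to TPM, after rescaling over genes other than immunoglobulin and with the filter at a mean of 5 FPKM. The count of rises was 0 without Control 2 or Control 3, 1 without DSS 1 or DSS 3, 2 without GsMTx4 1, 3 without GsMTx4 2 or GsMTx4 3, and 12 without DSS 2. Cd79a, a signalling chain of the B cell receptor, stood at 12.5, 7.22 and 15.3 FPKM in GsMTx4, at 77.1, 18.1 and 33.5 FPKM in DSS, and at 15.3, 4.18 and 5.03 FPKM in Control. It was highest in DSS 1, and Control 1 was the highest Control library, as it was for Ighd.

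Of the germinal centre and class switching genes, Gcsam, a germinal centre signalling gene, rose by 0.70 ± 0.14 in DSS against Control (limma, adjusted p = 0.0122; lost without Control 2 or Control 3, up to 0.0610) and fell by 0.72 ± 0.14 in GsMTx4 against DSS (adjusted p = 0.0149; 0.0524 without GsMTx4 2). Msh6, a mismatch repair gene, stood at 6.43, 9.29 and 7.19 FPKM in GsMTx4, at 4.73, 3.64 and 5.14 FPKM in DSS, and at 6.45, 7.55 and 7.66 FPKM in Control. DSS lay below every other library. Msh6 fell by 0.59 ± 0.17 in DSS against Control (limma, adjusted p = 0.0401), a call lost without any 1 Control library, DSS 1 or DSS 2, up to 0.131. It rose by 0.65 ± 0.17 in GsMTx4 against DSS (adjusted p = 0.0365), lost without any 1 library but GsMTx4 1, up to 0.117.

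Of the cytokines and ligands of switching, 5 of 12 could be tested. Tnfsf13b, the B cell survival factor BAFF, rose by 0.68 ± 0.18 in DSS against Control (limma, adjusted p = 0.0312; lost without DSS 2, DSS 3 or any 1 Control library, up to 0.116) and fell by 0.83 ± 0.18 in GsMTx4 against DSS (adjusted p = 0.0195). Tgfb1, whose product directs switching to IgA, did not pass in DSS against Control (0.61 ± 0.20, adjusted p = 0.0705; 0.0131 without DSS 2) and fell by 1.19 ± 0.20 in GsMTx4 against DSS (adjusted p = 0.00918). Tnfsf13, which encodes APRIL, rose by 0.70 ± 0.16 in GsMTx4 against DSS (adjusted p = 0.0276; lost without DSS 1, DSS 3, GsMTx4 2 or GsMTx4 3, up to 0.0752).

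Pigr, the polymeric Ig receptor, stood at 1007, 859.6 and 575 FPKM in GsMTx4, at 554, 354 and 513 FPKM in DSS, and at 749, 788 and 826 FPKM in Control. DSS lay below every other library, but neither comparison passed, with -0.76 ± 0.26 in DSS against Control (limma, adjusted p = 0.0722) and 0.77 ± 0.26 in GsMTx4 against DSS (adjusted p = 0.0839); both passed without GsMTx4 3, at 0.0327 and 0.0321. Of 8 genes of IgA transport and Fc binding, the Fc receptor genes Fcgr2b, Fcer1g and Fcgr3 rose in DSS against Control, by 1.01 ± 0.21, 0.95 ± 0.23 and 1.21 ± 0.31 (adjusted p = 0.0141, 0.0238 and 0.0286), and only Fcgr3 fell in GsMTx4 against DSS, by 1.13 ± 0.31 (adjusted p = 0.0455). Of all tested genes, 6.41% rose in DSS against Control and 5.62% fell in GsMTx4 against DSS. Rises in this list numbered 0 without Control 1, 1 without Control 2, Control 3, DSS 2 or DSS 3, and 5 without DSS 1. Without DSS 1, 3 genes of the list fell in GsMTx4 against DSS. The fall of Fcgr3 was lost without any 1 library but Control 1 and DSS 1, up to 0.150.

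Genes that recruit B and plasma cells changed in both directions. Of 11 tested homing genes, Cxcl13, Ccr7, Cxcr4 and Madcam1 rose in DSS against Control and Ccl28 fell. Of all tested genes, 6.41% rose there and 10.7% fell. The rise of Madcam1 was lost without Control 2 (limma, adjusted p = 0.0513). Cxcl13, the chemokine that draws B cells into follicles, stood at 36.4, 24.2 and 21.7 FPKM in GsMTx4, at 188, 244 and 77.9 FPKM in DSS, and at 10.7, 20.3 and 19.7 FPKM in Control. It was high in all DSS libraries, and rose by 3.16 ± 0.42 (limma, adjusted p = 0.00231) and fell by 2.47 ± 0.42 in GsMTx4 against DSS (adjusted p = 0.00840). Ccl28, the epithelial chemokine that attracts IgA plasma cells, stood at 35.7, 38.9 and 43.1 FPKM in GsMTx4, at 23.0, 25.1 and 22.8 FPKM in DSS, and at 45.04, 36.6 and 38.6 FPKM in Control. It was low in all DSS libraries, and fell by 0.73 ± 0.13 in DSS against Control (adjusted p = 0.00770) and rose by 0.71 ± 0.13 in GsMTx4 against DSS (adjusted p = 0.0121). In GsMTx4 against DSS, Ccr7, Cxcl13, Cxcr4 and Itgb7 fell, where 5.62% of all tested genes fell and 6.66% rose. These falls numbered 2 without DSS 3 or GsMTx4 2. Of the early B cell and surrogate light chain list, only Vpreb3 and Il7r could be tested, and Rag2 and Igll1 were listed at 0 in all 9 libraries. These 2 tested genes alone do not show early B cells. Vpreb3 rose by 1.46 ± 0.39 in DSS against Control (limma, adjusted p = 0.0352). That call was lost without Control 2, Control 3 or any 1 DSS library, up to 0.115. Il7r fell by 1.01 ± 0.19 in GsMTx4 against DSS (adjusted p = 0.0116), as did Vpreb3 without GsMTx4 3 (0.0369).

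Markers of other cell types moved with some of these results, and their part in them was not tested. The lymphoid follicle stroma list, with 5 of 7 tested genes higher in DSS against Control (3 without Control 2), summed to 115 to 186 FPKM in GsMTx4, 371 to 531 FPKM in DSS and 72.6 to 92.01 FPKM in Control; Ccl21a, Cxcl13, Clu, Madcam1 and Ccl19 were the genes, and Ccl21a led them, at 2.04 ± 0.25 (limma, adjusted p = 0.00175). Of the 7 tested genes of this list, Cxcl13, Ccl21a and Ltb fell in GsMTx4 against DSS. Only 1 gene fell without Control 2, DSS 3 or GsMTx4 2. Of all tested genes, 6.41% rose in DSS against Control and 5.62% fell in GsMTx4 against DSS. The rise of Ccl19 was lost without Control 2, Control 3, DSS 1 or DSS 2 (limma, adjusted p up to 0.0835). The fall of Ccl21a was lost without Control 1, Control 2, DSS 2, DSS 3 or GsMTx4 2 (up to 0.106). That of Ltb held only without DSS 2 or GsMTx4 3 (up to 0.129 otherwise). The T cell list had 0 of 11 genes past the threshold in each comparison (limma), with 0 at an unadjusted p under 0.05 in DSS against Control and 3 lower in GsMTx4 against DSS. Of all 14360 tested genes, 5014 and 4324 were under 0.05 in these 2 comparisons, in either direction. The T cell list summed to 36.5 to 50.1 FPKM in GsMTx4, 44.0 to 84.4 FPKM in DSS and 49.9 to 61.4 FPKM in Control. The epithelial list, which marks the labelled tissue, summed to 5834 to 7252 FPKM in GsMTx4, 6017 to 8109.5 FPKM in DSS and 5910 to 7168 FPKM in Control, with 0 of 11 genes past the threshold in DSS against Control (limma; 1 higher at an unadjusted p under 0.05). Krt20 fell and Slc26a3 rose in GsMTx4 against DSS; the first was lost without Control 2, DSS 1, DSS 2 or GsMTx4 2 (up to 0.0803) and the second without any 1 library (up to 0.126).

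Hepatocyte genes were higher in the GsMTx4 libraries. Of 8 hepatocyte genes 7 rose in GsMTx4 against DSS and 6 in GsMTx4 against Control (limma), where 6.66% and 0.188% of all tested genes rose. The list summed to 56.5 to 76.2 FPKM in GsMTx4, 19.0 to 26.8 FPKM in DSS and 33.3 to 47.3 FPKM in Control. Alb, the albumin gene, stood at 13.2, 14.4 and 14.6 FPKM in GsMTx4, at 0.0719, 0.479 and 0.111 FPKM in DSS, and at 1.22, 0.825 and 0.753 FPKM in Control. Ttr and Alb fell in DSS against Control, Alb not without Control 1, Control 2, Control 3, DSS 1 or DSS 3 (up to 0.0891). Ahsg was listed at 0 in all DSS libraries, at 0 in 2 of 3 Control libraries and at 2.02 to 2.55 FPKM in GsMTx4. The part of liver RNA in the GsMTx4 values of immunoglobulin genes was not tested.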

How the data were processed

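The deposited table gave 1 FPKM value per gene for each of the 9 colon libraries; per the submitters' processing notes, the authors used cutadapt, FastQC and GRCm38. Which aligner and program made the FPKM values, and how reads shared between genes were handled, is not given in the sources used here. These units keep no read number, so the depth is unknown and no counting interval is given. Symbols came from GENCODE M21, which named 35196 of 35315 genes, and sequences from its GRCm38 transcripts.

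Genes with at least 1 FPKM in at least 3 libraries were tested with limma 3.58.1 in R 4.3.3 on log2(FPKM + 1), with 1 model over all 3 groups, a shared spread and Benjamini-Hochberg adjustment over the 14360 tested genes; every adjusted p is from limma, every error beside a log2 fold change is an SE, and a fold change on this scale understates that of low genes. The script was tested on simulated data. Shares and ratios were computed per library from FPKM with Python 3.11.15.

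The members and gene lists were chosen with earlier results of these data known. Genes named were all constant members, the 8 Ighv, 8 Igkv and all Iglv members with the highest mean, the 4 largest rises and falls that passed with groups not overlapping, the 3 members nearest each side of the threshold, and per list the 2 smallest p, every gene past the threshold where at most 5 passed, and Jchain, Pigr and Mzb1; exceptions are stated, and a few genes that the rule names are not reported here. Alternatives were another pseudocount, filters, scalings, models and each library left out.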

Additional observations from a re-analysis of the deposited data

How the results depend on the processing

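The number of immunoglobulin genes that rose in DSS against Control was 35, and it was 13 with no filter on low values, where 33133 genes were tested, and 12 to 43 over the 9 fits that each left out 1 library. The number that fell in GsMTx4 against DSS was 31, and it was 11 with no filter, 17 when each pair of groups was fitted alone, and 15 to 31 with 1 library left out. Among the named genes, the pair fit lost the falls of Ighg1, Ighg2b, Iglc1, Iglv1, Ighv8-5 and Igkv8-28 and the rises of Igkc, Iglc1 and Ighv6-3 in DSS against Control, and it gained rises there for Ighv1-53, Igkv17-127 and Iglv3. With no filter, 9 of their calls in DSS against Control and 8 in GsMTx4 against DSS were lost. Median-of-ratios scaling gained the rises of Igha, Ighg3, Igkv19-93, Iglc2 and Iglv3, and quantile normalization that of Ighg3 and the fall of Igkc, while it lost the rises of Ighv6-3 and Iglc1. The smaller pseudocount of 0.1 lost both calls of Ighv8-5, and rescaling to TPM or over other genes lost the rise of Ighv6-3. The single gene that rose in GsMTx4 against DSS, Ighv1-61, was lost, leaving 0, with no filter, after rescaling to TPM, after rescaling over genes other than immunoglobulin, in the pair fit and with a replicate block; leaving out libraries gave 0 to 1. With the replicate block, DSS against Control had 33 rises and 1 fall among them, and 28 fell in GsMTx4 against DSS; among the named genes the rises of Igkc, Igkv17-121 and Ighv6-3 and the fall of Igkv8-28 were lost, and the rises of Ighd, Ighg3, Igkv19-93 and Iglv3 and the fall of Ighm were gained. Same-numbered libraries deviated together with correlations of -0.23 to 0.10 over all genes, so the numbers were not taken to pair samples. Weighting by the longest transcript gave -20.54 percentage points for the Igha share and 18.79 for the IgG share in DSS minus Control, and weighting by the shortest, chosen after seeing the data, gave -26.52 and 24.28. For detected rows, DSS minus Control in Ighv was 3.333 over members only and 7.333 at 5 FPKM, in place of 5.33, and in Igkv it was 9.667 at 5 FPKM, in place of 5. For Igkv rows, GsMTx4 minus DSS was -7.0 and GsMTx4 minus Control -2.0 without pseudogenes, and GsMTx4 minus Control was -0.3333 at 5 FPKM. The cause of these shifts was not tested. No called value changed sign under an alternative that was run. Depth is unknown, so no limit of detection is given.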
